A study of Homo sapiens with 6 samples.

Results

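The genes described here are 48 functionally mixed genes of the long arm of human chromosome 22 (22q), listed in order from the centromere outwards, 27 in band 22q11 and 21 in bands 22q12 and 22q13. They were chosen with their own shift between the groups in view: the values that chose them are the differences between the arrays labelled TAT-2 and those labelled vector, so those differences are given as a description. Counts of members past a threshold in that contrast stand beside the share of all genes and support nothing. Of the 48 genes, 46 had a probe set (the array's group of probes for 1 transcript) that passed the filter on dim signals, among 12151 genes tested in all. DGCR8 was read only by 4 probe sets annotated together with another gene and SREBF2-AS1 had no probe set, so neither has a value. No member was lost to the filter.

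RNA came from HSC-3, an established line of human tongue squamous cell carcinoma, on 6 Affymetrix arrays. Per the labels, 3 arrays (TAT-2) carried RNA of HSC-3 cells overexpressing trypsin-2, the serine protease encoded by PRSS2, and 3 (vector) carried RNA of HSC-3 cells with a control vector and no trypsin-2 expression. Both groups were cultured for 48 h in the same serum-containing medium, and each labelling started from 2 µg of total RNA. The labels do not say whether either line was 1 clone, which promoter drove the transgene, or whether the replicates of a group came from separate cultures. The p-values therefore cover the spread among these 6 arrays, and that spread may be technical.

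Signals annotated to the trypsin-2 gene went against the labels in replicates 2 and 3. In replicate 1 they differed little between the groups. The brighter PRSS2 probe set gave signals of 20.4, 13.8 and 14.6 on the arrays labelled TAT-2 and 19.6, 80.8 and 83.2 on those labelled vector, in the order of replicate numbers 1, 2 and 3 that is kept throughout. The dimmer one gave 19.9, 17.9 and 19.5 against 22.6, 38 and 54.5. Both PRSS2 probe sets share sequence with others. Whether their signals came from PRSS2 or from the transgene was not tested. The groups are therefore called by their labels, and every direction below rests on those labels. The replicate 1 arrays of both groups differed from the rest in some control signals. Their signal for a 28S ribosomal RNA probe set was 682 and 530 against 2030 to 2537. Their log2 ratio of 3' to 5' signal for ACTB was 0.21 and 0.25 against 0.46 to 0.59. For GAPDH that ratio went slightly the other way, with 0.03 and 0.09 against -0.00 to 0.02. The ACTB ratio was slightly lower on the TAT-2 array of each replicate number (0.21, 0.46 and 0.57 against 0.25, 0.50 and 0.59). Its part in the differences below was not tested. Of the 14 listed epithelial markers, 10 had a probe set annotated to 1 symbol. All 10 passed the filter, KRT5, KRT14 and CDH1 among them. Their summed signal was 30955 to 33792 on TAT-2 arrays and 28508 to 36942 on vector arrays. Fibroblast markers passed the filter for 3 of 8 (sum 155 to 159 and 126 to 163) and endothelial markers for 1 of 6 (49 to 65.2 and 44.7 to 55.6). Leukocyte markers passed for 3 of the 6 with such a probe set, out of 8 listed (97 to 136 and 93.1 to 141). Of these lists, those that passed were COL1A1, DCN and THY1, then PECAM1, then CD14, ITGAM and CD79A. COL1A2, COL3A1, VWF, CDH5, PTPRC and CD3E were among those under the filter level.

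Chromosome 22 is acrocentric, and its protein-coding genes lie on the long arm. Band 22q11, next to the centromere, is known for the recurrent deletion of DiGeorge syndrome, which removes genes such as DGCR2, HIRA, CRKL and SNAP29. The arm also carries the tumour suppressors SMARCB1, LZTR1, NF2 and CHEK2, and BCR and EWSR1, the partners of leukaemia and sarcoma gene fusions. Genes that lie side by side on such an arm need not share a function, and in some cases they share the DNA between their starts.

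Promoter sequences were available for 44 of the 48 members, from RefSeq on assembly GRCh38.p14, as windows of 300 bases from 250 before to 50 after a start site. Shown first are the stretches between the starts of 2 head-to-head pairs of members whose windows overlap, because each pair is read from opposite strands of the same bases. HIRA and MRPL40 also lie head to head, but their windows do not overlap and are not shown. They are given on the plus strand, 5′ to 3′, with matches to the GC box GGGCGG and to CCAAT on either strand in capitals.
CHEK2 and HSCB, chr22:28741821-28742031, plus strand: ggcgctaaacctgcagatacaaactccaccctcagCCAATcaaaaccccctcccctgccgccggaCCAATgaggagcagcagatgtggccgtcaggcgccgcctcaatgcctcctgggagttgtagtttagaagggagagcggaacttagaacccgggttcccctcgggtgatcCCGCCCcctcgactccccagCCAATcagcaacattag
PI4KA and SNAP29, chr22:20858812-20859006, plus strand: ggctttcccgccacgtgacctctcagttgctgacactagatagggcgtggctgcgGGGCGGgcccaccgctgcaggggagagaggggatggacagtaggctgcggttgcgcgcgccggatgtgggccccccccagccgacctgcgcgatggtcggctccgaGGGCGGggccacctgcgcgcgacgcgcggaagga
The stretch between CHEK2 and HSCB is 211 bases long and holds 3 CCAAT matches and 1 GC box. That between PI4KA and SNAP29 is 195 bases long and holds 2 GC boxes and no CCAAT match. Also shown are the 250 bases before the starts of ASCC2 and MTMR3, each on its own strand with the same matches in capitals. These neighbouring members lie on either side of the place, picked after the values were seen, that parts the near and far stretches below.
ASCC2, chr22:29838275-29838524, minus strand: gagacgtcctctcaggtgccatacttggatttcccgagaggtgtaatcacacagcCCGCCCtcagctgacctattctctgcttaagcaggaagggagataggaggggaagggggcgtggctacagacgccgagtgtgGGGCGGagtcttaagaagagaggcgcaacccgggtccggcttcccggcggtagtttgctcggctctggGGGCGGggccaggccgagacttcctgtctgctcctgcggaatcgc
MTMR3, chr22:29882924-29883173, plus strand: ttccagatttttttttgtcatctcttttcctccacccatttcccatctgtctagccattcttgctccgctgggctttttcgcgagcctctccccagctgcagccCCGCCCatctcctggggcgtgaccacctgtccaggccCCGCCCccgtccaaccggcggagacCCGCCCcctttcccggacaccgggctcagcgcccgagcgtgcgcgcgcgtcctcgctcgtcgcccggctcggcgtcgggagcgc
Each of these windows holds 3 GC boxes and no CCAAT match. No tested gene lies between ASCC2 and MTMR3.

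Searched on both strands over the whole 300-base windows, with overlapping matches counted, the GC box GGGCGG was present in 27 of 32 members from BCL2L13 to ASCC2 (84.4%) and 8 of 12 from MTMR3 to the end of the list (66.7%). It was present in 67.4% of the windows of 9883 genes tested and in 43.8% of all 27305 windows. CCAAT was present in 34.4% and 25.0% of the members in those 2 stretches, against 36.8% of genes tested and 35.6% of all windows. The TATA box TATAAA was present in 6.25% and 8.33%, against 6.31% and 12.1%. The ETS core CCGGAAG was present in 25.0% and 8.33%, against 18.9% and 10.6%. Median GC content was 66.0% and 70.2%, against 65.0% and 58.0%. These matches are a description of letters and not of binding sites.

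Along 22q the members fell into a near and a far stretch. In band 22q11 all 26 measured members had a higher mean on the TAT-2 arrays, with a median difference of 0.35 on the log2(signal + 16) scale and a range of 0.06 to 0.68. Within replicate numbers 1, 2 and 3 that median was 0.36, 0.43 and 0.36. In bands 22q12 and 22q13 the median of the 20 measured members was 0.07, with 11 above 0 and 9 below. Within the replicate numbers it was 0.06, 0.16 and 0.14. Without the vector replicate 1 array the medians were 0.53 and 0.18, and the median of 22q12 and 22q13 was also 0.15 without TAT-2 replicate 2 and 0.14 without both replicate 1 arrays. All genes tested had a median of 0.00, and 49.5% of them lay above 0.

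The change of level did not fall at the band boundary between SNRPD3 and MN1. The 9 members of 22q12 from MN1 to ASCC2 lay above 0 like those of 22q11, with a median of 0.36, while the 6 from MTMR3 to MYH9 had a median of -0.03 and the 5 of 22q13 a median of -0.06. The place between ASCC2 and MTMR3 was picked after the values were seen. Drawn there, it parts 35 members that all lay above 0 (median 0.36, and 0.36, 0.38 and 0.35 within the replicate numbers) from 11 members of which 2 did (median -0.04, and -0.12, -0.10 and 0.06). Just inside it, ASCC2 differed by 0.47, and just outside it MTMR3 by -0.01. All 35 stayed above 0 with pseudocounts of 1 and 64, quantile normalization and centred array medians. That count fell to 31 without TAT-2 replicate 1 and 34 without vector replicate 1, settings that leave the replicate 1 shift unbalanced between the groups, and to 17 of 18 where only probe sets of unshared sequence were used.

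**Figure D1:**
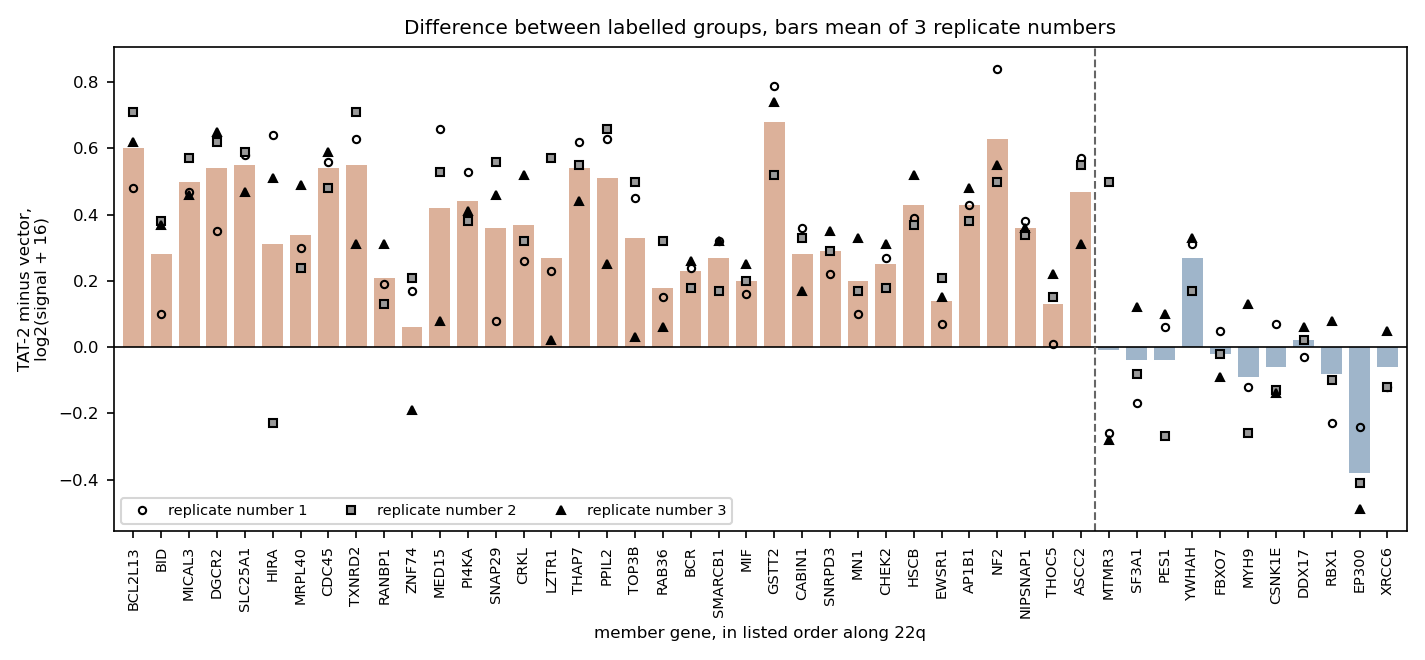
Difference between TAT-2 and vector arrays on the log2(signal + 16) scale (vertical axis) for the 46 measured members in listed order along 22q (horizontal axis). Bars are the mean difference, open circles, grey squares and black triangles are replicate numbers 1, 2 and 3, and the dashed line lies between ASCC2 and MTMR3: all 35 bars to its left are above 0, and 2 of 11 to its right are.

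With group as the only term, limma called 0 of the 46 members at an adjusted p under 0.05, and 18 at an unadjusted p under 0.05, all of them from BCL2L13 to ASCC2. The background was 0.329% of all genes tested for the adjusted and 9.38% for the unadjusted threshold. Without both replicate 1 arrays it called 9 members, and without that of TAT-2 alone 1. With the replicate number as a block, which compares arrays of the same number, 23 members were called higher on TAT-2 and 0 lower, against 4.34% of all genes called higher and 4.07% called lower. Of the 23, 22 lay from BCL2L13 to ASCC2 and the other was YWHAH. The blocked calls rested on letting the variance follow the signal: without that trend 0 members were called. With only probe sets of unshared sequence, 9 of 27 members were called with the block. Of the 46 members, 34 were higher on TAT-2 in all 3 replicate numbers (background 21.4%) and 1, EP300, was lower in all 3 (21.1%). In 16 members, all from BCL2L13 to ASCC2, the lowest TAT-2 array lay above the highest vector array (7.87%). The members were chosen on this contrast, so nothing is read from these shares.

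Members with a mitochondrial role are taken first. All 7 mitochondrial members, 5 in 22q11 and 2 in 22q12, had a median difference of 0.43 and a range of 0.28 to 0.60. With the block all 7 were called, against 4.34% of all genes called higher, and without the intensity trend none of the 46 members was. Since this contrast chose the members, nothing is read from that count. BCL2L13, a BCL2 family protein of the outer membrane that acts as a mitophagy receptor, gave signals of 620, 806 and 816 on TAT-2 arrays and 439, 488 and 526 on vector arrays. Its groups did not overlap, and the difference was 0.60, a 1.52-fold higher level. TXNRD2, the thioredoxin reductase of mitochondria, gave 205, 199 and 159 against 127, 116 and 125, a difference of 0.55 with no overlap. SLC25A1, the citrate carrier of the inner membrane, gave 314, 190 and 197 against 204, 121 and 138. Its TAT-2 array was the higher within every replicate number, by 0.58, 0.59 and 0.47, although both replicate 1 arrays lay above the others of their group and the groups overlapped. The ribosomal protein MRPL40 (0.34) and BID, which carries death-receptor signals to mitochondria (0.28), had the smaller differences among the 5 of 22q11.

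Genes of replication, RNA handling and the nucleus in 22q11 followed. CDC45, a subunit of the replicative helicase, gave 617, 548 and 592 on TAT-2 arrays against 413, 390 and 388. The groups lay well apart, at 586 ± 34.8 and 397 ± 14.0 (SD, n = 3 each), a difference of 0.54. THAP7, a zinc finger protein that represses transcription, gave 191, 132 and 141 against 118, 85.3 and 99.4, a difference of 0.54 with no overlap. PPIL2, a cyclophilin associated with the spliceosome, gave 151, 110 and 96.3 against 91.7, 63.7 and 78.4, a difference of 0.51. Its groups did not overlap either, but the probe set shares sequence with others. The 1 PPIL2 probe set of unshared sequence differed by -0.11, at dim signals of 8.78 to 24.2. The remaining PPIL2 probe sets, all of shared sequence, differed by 0.14 to 0.50. SNRPD3, a core protein of spliceosomal snRNPs and the last member of 22q11, gave 4280, 4594 and 4869 against 3677, 3764 and 3804. Its difference was 0.29, with every TAT-2 array above every vector array.

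Other nuclear members of 22q11 had smaller or more uneven differences. RANBP1, which binds the transport GTPase Ran, differed by 0.21 with no overlap. HIRA, a histone H3.3 chaperone, differed by 0.64, -0.23 and 0.51 within the replicate numbers, and the zinc finger gene ZNF74 by 0.17, 0.21 and -0.19. These were the only members from BCL2L13 to ASCC2 that were not higher on TAT-2 in every replicate number. ZNF74 also had the smallest mean difference of that stretch, 0.06.

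The largest difference of any member was that of GSTT2, which encodes a theta-class glutathione transferase and is listed as a transcribed pseudogene in the RefSeq table. It gave 146, 126 and 120 on TAT-2 arrays against 78.2, 82.7 and 65.2 on vector arrays. The groups did not overlap, and the difference was 0.68, a 1.60-fold higher level. A near-identical copy, GSTT2B, lies beside it, so which copy the signal came from is uncertain. DGCR2, an adhesion receptor of the DiGeorge interval, gave 342, 371 and 397 against 264, 236 and 247, a difference of 0.54 with no overlap. A dimmer DGCR2 probe set differed by -0.37, with a signal of 10.8 on TAT-2 replicate 3 against 37.1 to 59.4 on every vector and the other TAT-2 arrays.

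Signalling and membrane members of 22q11 were higher as well. PI4KA, the lipid kinase that makes phosphatidylinositol 4-phosphate at the plasma membrane, differed by 0.44, and its head-to-head neighbour SNAP29, a SNARE of membrane fusion, by 0.36. Both had groups that did not overlap. Within replicate number 1 the pair parted, with 0.53 for PI4KA and 0.08 for SNAP29. CRKL, an adaptor of tyrosine kinase signalling, differed by 0.37, the GTPase regulator BCR by 0.23 and the cytokine MIF by 0.20. RAB36, a Rab GTPase, differed by 0.18. MICAL3, an actin-regulating monooxygenase, differed by 0.50 on its brightest probe set, but its other 3 probe sets differed by -0.32, 0.06 and 0.15. Its difference was 0.10 with its probe sets averaged, 0.15 with unshared sequence alone and 0.28 without TAT-2 replicate 1. LZTR1, an adaptor of a ubiquitin ligase that targets RAS proteins, differed by 0.27, with 0.02 within replicate number 3.

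In 22q12 the head-to-head pair of CHEK2 and HSCB lay near the start. CHEK2, a checkpoint kinase of the DNA damage response, gave 210, 243 and 264 on TAT-2 arrays against 172, 212 and 210. The groups overlapped only between 210 and 212, with a difference of 0.25. HSCB, a co-chaperone of mitochondrial iron-sulphur cluster assembly, gave 523, 500 and 521 against 395, 383 and 358. Its groups lay apart at 515 ± 12.7 and 378 ± 18.9 (SD, n = 3 each), a difference of 0.43. The only probe sets of CHEK2 and of HSCB share sequence with others. So do those of further members, SLC25A1, CDC45, THAP7 and ASCC2 among them. Of the 46 members, 27 had a tested probe set of unshared sequence. MN1, a transcriptional coregulator and the first member of 22q12, gave 130, 113 and 105 against 120, 99.0 and 80.5. Its groups overlapped, and the difference was 0.20.

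NF2, which encodes the tumour suppressor merlin, had the largest difference of 22q12. Its brightest probe set gave 998, 482 and 519 on TAT-2 arrays against 550, 335 and 351. The TAT-2 array was the higher in every replicate number, by 0.84, 0.50 and 0.55, while TAT-2 replicates 2 and 3 lay under vector replicate 1. The other 7 NF2 probe sets differed by -0.01 to 0.38. AP1B1, a subunit of the clathrin adaptor AP-1, gave 473, 274 and 297 against 347, 207 and 208, a difference of 0.43 with the same kind of overlap. NIPSNAP1, a mitochondrial matrix protein, gave 678, 622 and 610 against 518, 489 and 470. Those groups did not overlap, and the difference was 0.36. EWSR1, an RNA-binding protein, differed by 0.14, and THOC5, a subunit of the mRNA export complex THO, by 0.13, the smallest of this stretch of 22q12.

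ASCC2, a ubiquitin-binding partner in the repair of alkylated DNA, was the last member before the place picked after the values were seen. It gave 398, 244 and 212 on TAT-2 arrays against 263, 162 and 168 on vector arrays. The differences within replicate numbers were 0.57, 0.55 and 0.31. MTMR3, a phosphoinositide phosphatase of the myotubularin family, gave 91.0, 93.1 and 72.4 against 112, 61.1 and 91.4. Its differences were -0.26, 0.50 and -0.28, so its replicate numbers did not share a sign.

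Beyond MTMR3 the members of 22q12 stayed near 0, with 1 exception. SF3A1, a splicing factor of the U2 snRNP, gave 626, 488 and 598 against 709, 515 and 549 (difference -0.04). PES1, needed for the large ribosomal subunit, gave 329, 212 and 259 against 316, 259 and 241 (difference -0.04). FBXO7, an F-box protein, gave 527, 428 and 404 against 507, 433 and 430 (difference -0.02). In each the groups overlapped across most of their range. MYH9, the heavy chain of non-muscle myosin IIA, gave 771, 344 and 435 against 840, 417 and 397, a difference of -0.09. The exception was YWHAH, the 14-3-3 eta protein, which gave 639, 394 and 414 against 514, 348 and 325. It was higher on TAT-2 in every replicate number, by 0.31, 0.17 and 0.33, though its groups overlapped. With its 3 probe sets averaged in place of the brightest, the sign turned. The others, however, were under the filter level, with signals of 4.06 to 17.7.

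In 22q13, 4 of the 5 measured members lay below 0. CSNK1E, a casein kinase of the circadian clock, gave 314, 233 and 208 against 298, 255 and 232, a difference of -0.06, and a second probe set differed by 0.24. DDX17, an RNA helicase, gave 1256, 1682 and 1652 against 1281, 1663 and 1585, a difference of 0.02. Both genes overlapped between the groups over nearly their whole range. RBX1, the RING subunit of cullin ubiquitin ligases, gave 1159, 1450 and 1527 against 1358, 1552 and 1448 (difference -0.08). XRCC6, the Ku70 subunit that binds DNA ends, gave 2134, 2109 and 2227 against 2316, 2300 and 2149 (difference -0.06). EP300, a histone acetyltransferase, gave 132, 54.5 and 47.0 against 159, 77.6 and 72.6. It was the lower on TAT-2 in each replicate number, by -0.24, -0.41 and -0.49, and the member of largest negative difference, -0.38. YWHAH and EP300 were thus the highest and the lowest of the far stretch.

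**Figure D2:**
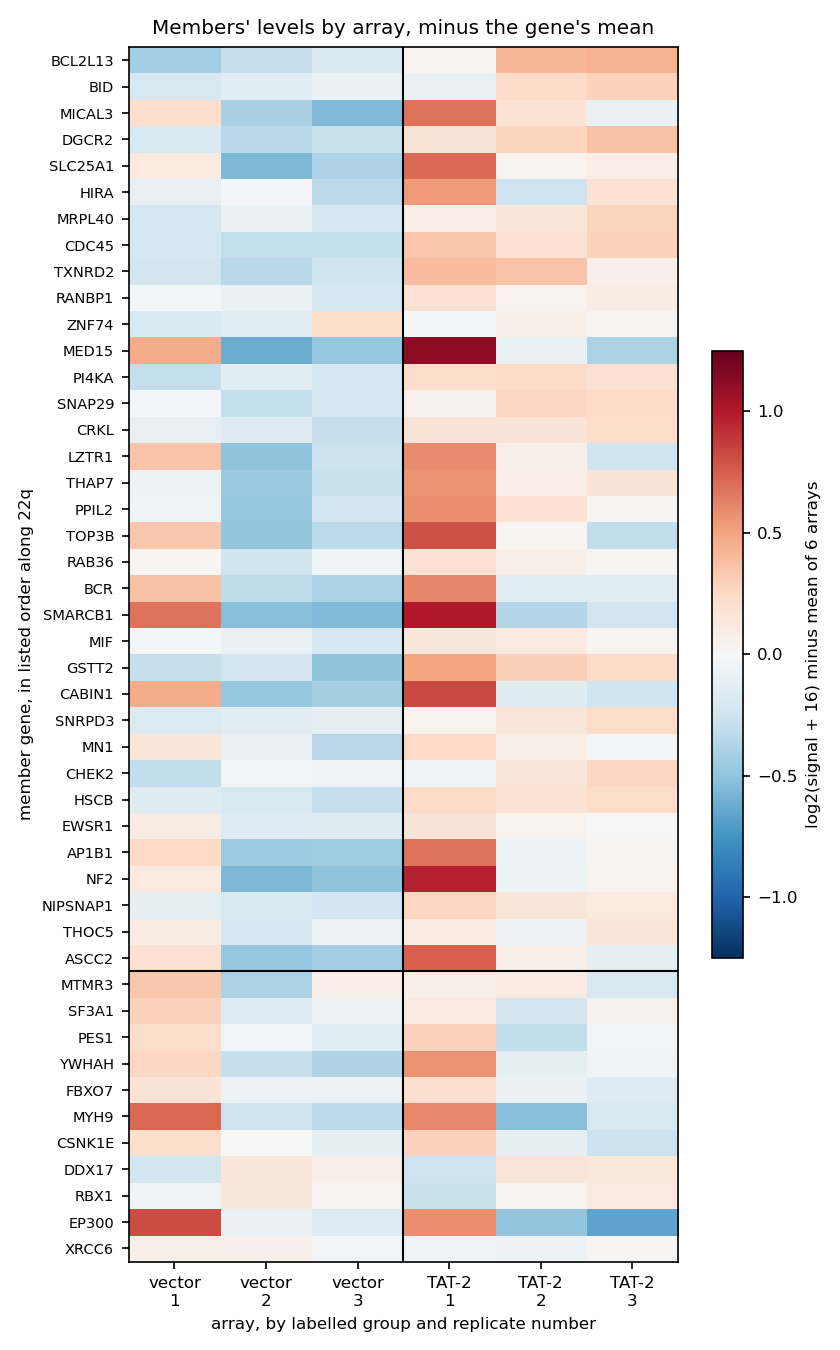
Level of each of the 46 measured members (rows, in listed order along 22q) on each of the 6 arrays (columns), as log2(signal + 16) minus the gene's mean over the 6 arrays; red is above and blue below that mean. The horizontal line lies between ASCC2 and MTMR3. Above it the TAT-2 columns are redder, and replicate 1 of both groups is redder than replicates 2 and 3 in rows such as SMARCB1, MED15, MYH9 and EP300.

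By role, the median of the near members lay above that of the far members in each group that had members on both sides, though single members crossed: YWHAH (0.27) lay above BCR and MIF. The 4 replication and repair members up to ASCC2 had a median of 0.40, and XRCC6 was at -0.06. The 4 members of RNA processing up to ASCC2 had a median of 0.21, and SF3A1 and DDX17 one of -0.01. The 7 of chromatin and transcription had a median of 0.28, against -0.38 for EP300. The 4 of the cytoskeleton and membrane traffic had a median of 0.40, against -0.09 for MYH9, and the 5 of signalling one of 0.37, against -0.01 for YWHAH, CSNK1E and MTMR3. LZTR1, of a ubiquitin ligase, was at 0.27, and RBX1 and FBXO7 had a median of -0.05. No role was tested. The choice of members on this contrast, and of the place between ASCC2 and MTMR3 after the values were seen, fixes much of the split.

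Further probe sets of the same genes are given as a description. Of the 46 members, 21 had a further probe set above the filter. From BCL2L13 to ASCC2, 30 of 35 such probe sets lay above 0, with a median of 0.24. From MTMR3 on, 2 of 14 did, with a median of -0.08. They read the same RNA on the same arrays of genes chosen for this shift, so they are no separate replicates and support nothing. BCL2L13 itself was uneven, with 0.60 for the brightest, 0.42 for another and 0.01 to 0.06 for the other 3.

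The rest of chromosome 22 was read through the 246 other tested genes, none picked by value. Up to SNRPD3, 38 of 47 lay above 0, with a median of 0.31. From there to ASCC2, 22 of 27 did, with a median of 0.32. From MTMR3 to the end of the chromosome, 82 of 172 did, with a median of -0.01. With members included, 95 of 109 genes up to ASCC2 lay above 0 and 84 of 183 beyond. Limma called 0 of the 246 with group as the only term, and 32 at an unadjusted p under 0.05. With the block it called 28 higher, 27 of them up to ASCC2, and 1 lower. That total of 29 became 12 without replicate number 2 and 0 without the intensity trend. These values come from the contrast on which the members were chosen and from the same arrays, so they are given as a description.

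**Figure D3:**
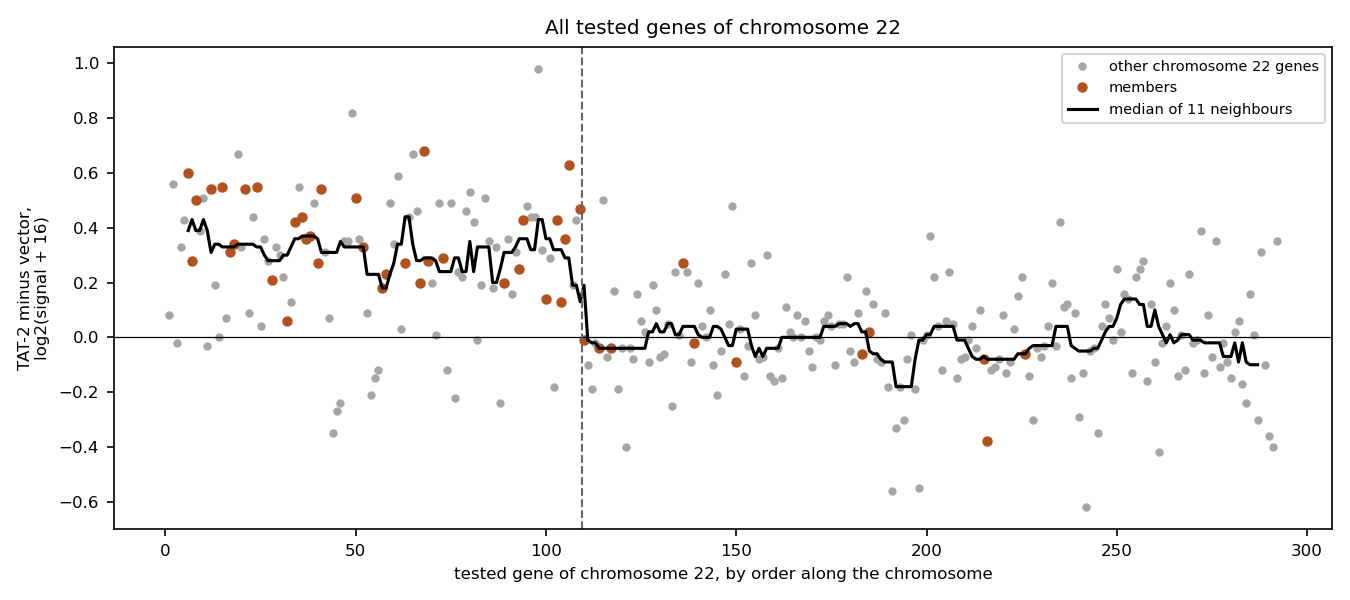
Difference between TAT-2 and vector arrays on the log2(signal + 16) scale (vertical axis) for all 292 tested genes of chromosome 22 in their order along it (horizontal axis), members in colour and others in grey. The black line is the median of 11 neighbouring genes and the dashed line lies between ASCC2 and MTMR3: medians are 0.33 for the 109 genes to its left and -0.01 for the 183 to its right.

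The other genes named are the 5 of largest difference among those called higher with the block, and the 1 called lower. KREMEN1, a DKK1 receptor that dampens Wnt signalling, gave 94.5, 64.4 and 62.3 on TAT-2 arrays against 26.6, 30.5 and 29.7, a difference of 0.98. SDF2L1, a resident protein of the endoplasmic reticulum, gave 430, 689 and 676 against 255, 356 and 371, a difference of 0.82. In both, every TAT-2 array lay above every vector array. C22orf39 gave 208, 236 and 231 against 106, 154 and 150 (0.67). SLC2A11, a sugar transporter, gave 48.1, 43.8 and 54.2 against 28.2, 23.7 and 21.9 (0.67). CHCHD10, a mitochondrial protein, gave 342, 200 and 263 against 234, 163 and 124 (0.59), and its groups alone among the 5 overlapped. All 5 lie up to ASCC2. BIK, a pro-apoptotic BCL2 family member of the far stretch, gave 145, 198 and 193 against 221, 347 and 285. Its difference was -0.62, with all TAT-2 arrays below all vector arrays.

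Set against other chromosomes, chromosome 22 had 17.5% of its 292 tested genes called higher with the block and 0.342% called lower. Chromosome 10 had 17.2% higher and 4.10% lower, chromosome 6 had 9.38% higher and 5.08% lower, and chromosome 5 had 8.01% higher and 1.64% lower. The order was the other way on chromosome 20, with 1.14% higher and 25.4% lower, and on chromosome 18, with 2.29% higher and 12.6% lower. No difference between chromosomes was tested, and DNA was not analysed here.

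A contrast that played no part in choosing the members is that between the replicate 1 arrays and replicates 2 and 3, with group as a term in the fit. In it limma called 21 of the 46 members higher on replicate 1 and 4 lower, against 14.0% and 12.8% of all genes tested. The total of 25 became 12 without the TAT-2 replicate 1 array, 15 without the intensity trend and 11 with only probe sets of unshared sequence. The near and far stretches did not part as they did between the groups. Up to ASCC2, 14 of 35 were higher and 2 lower, with a median of 0.15. From MTMR3 on, 7 of 11 were higher and 2 lower, with a median of 0.31. All genes tested had a median of 0.01. The members were also brighter, with a median level of 8.42 on the log2(signal + 16) scale against 7.29 for all genes tested. Of the 246 other chromosome 22 genes, with a median level of 6.69, 44 were called higher and 23 lower. The part of brightness in these counts was not tested. The 28S and ACTB values given above moved with this contrast, while the GAPDH ratio went slightly the other way. The part of these values in it was not tested.

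SMARCB1, a core subunit of the SWI/SNF chromatin remodeller, had the largest difference in this contrast. It gave 786 and 626 on the replicate 1 arrays, TAT-2 before vector, and 296, 326, 262 and 257 on the others, a difference of 1.26 ± 0.08 (SE; limma adjusted p = 5.31e-06). MED15, a Mediator subunit, gave 715 and 447 against 298, 240, 202 and 226, a difference of 1.19 ± 0.11 (limma adjusted p = 6.17e-05). For both, the step between replicate numbers was larger than that between the groups, which was 0.27 for SMARCB1 and 0.42 for MED15. EP300 (1.05 ± 0.13, limma adjusted p = 0.000242) and MYH9 (0.99 ± 0.09, limma adjusted p = 6.17e-05), both of the far stretch, were next. CABIN1, an inhibitor of calcineurin, gave 195 and 148 against 91.6, 84.5, 69.9 and 73.6, a difference of 0.96 ± 0.11 (limma adjusted p = 0.000201). TOP3B, a topoisomerase that acts on DNA and RNA, gave 146 and 102 against 78.2, 59.7, 50.5 and 58.0, a difference of 0.85 ± 0.14 (limma adjusted p = 0.0014). In these 6 genes both replicate 1 arrays lay above the other 4.

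The 4 members called lower on replicate 1 were DDX17 (-0.37), BCL2L13 (-0.29), CHEK2 (-0.26) and RBX1 (-0.25). For DDX17 and RBX1 both replicate 1 arrays lay below the other 4. BCL2L13 thus combined one of the largest differences between the groups with a level that was lower on replicate 1, whereas NF2 was higher in both contrasts (0.63 and 0.82). SMARCB1, MED15, BCR and CABIN1 turned sign in the group comparison when the TAT-2 replicate 1 array was left out, which leaves the vector replicate 1 array without its partner. With the whole replicate number 1 left out, no member up to ASCC2 turned sign.

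**Figure D4:**
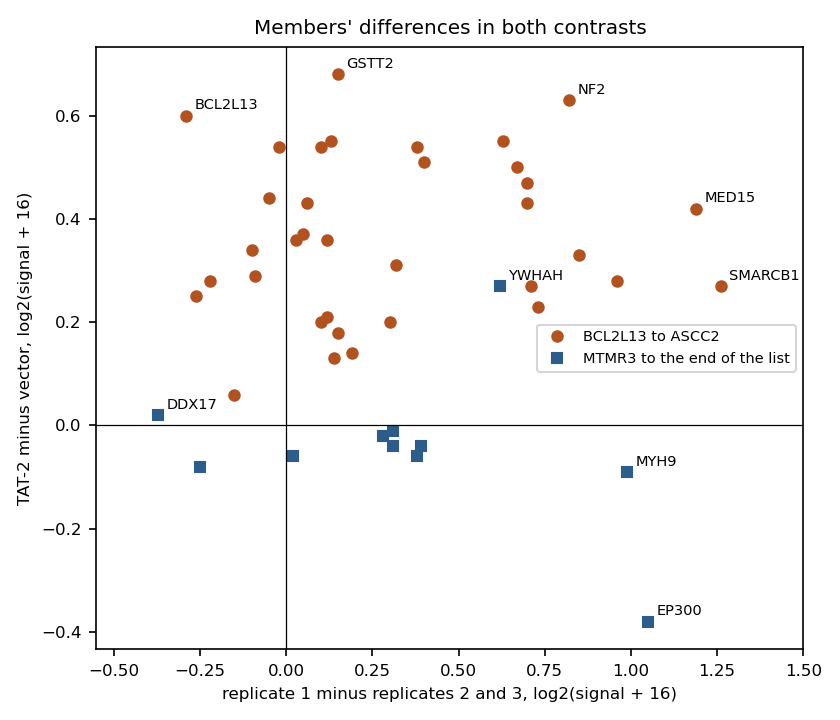
Difference between replicate 1 and replicates 2 and 3 (horizontal axis) and between TAT-2 and vector arrays (vertical axis), both on the log2(signal + 16) scale, for the 46 measured members. Circles are members from BCL2L13 to ASCC2 and squares those from MTMR3 on: circles and squares separate by height, with YWHAH the exception, and both spread widely from left to right.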

How the data were processed

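The authors deposited linear intensity values, 1 for each probe set on each array. MAS5 made them, per the submitters' processing notes; the sources used here do not give its version. The mean of each array's signals between percentiles 2 and 98 was 99.98, so the deposited scaling was kept. There are 54675 probe sets, 62 of them controls. By the platform annotation 41091 of the others have 1 symbol, 1801 several and 11721 none, and those with several name no gene.

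Signals were taken as log2(signal + 16), which understates differences of dim genes. Probe sets whose mean reached the median over all 54613 probe sets other than controls (4.96, a signal of 15.2) were tested: 27307 probe sets, of which the brightest stood for each of 12151 genes. Group was the only term in limma 3.58.1 (R 4.3.3; lmFit, eBayes with an intensity trend), with Benjamini-Hochberg adjustment over the genes at 0.05. The script was tested on simulated data. With 3 arrays a group, their number limits the precision.

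Replicate numbers come from the sample titles. Deviations of same-numbered arrays correlated at r = 0.64, 0.39 and 0.25, all over 0.1. The fit with the number as a block is therefore given where it changes a count. Differently numbered arrays ranged from -0.52 to 0.32. Across the groups, arrays numbered 2 and 3 correlated at 0.32 and 0.2, near the 0.39 and 0.25 of their own numbers. These values therefore do not show that numbers 2 and 3 are matched pairs.

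The members and lists were chosen with earlier results of these data known. Values in every array are given for up to 8 members of largest difference per band, the members at the band boundary, members against the sign of their stretch and up to 6 called in the replicate 1 contrast, and for the 5 largest rises and falls among other called genes of chromosome 22. Alternatives were other pseudocounts, filters, normalizations, probe set choices, no trend, replicate 1 as a batch factor, and each array left out.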

Additional observations from a re-analysis of the deposited data

How the results depend on the processing

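With no pairing, the 40 genes called over the whole array became 7 when adjusted over all probe sets (an alternative chosen after seeing the data), 8 with no filter, 21 with no intensity trend, 22 with averaged probe sets, 1021 with the replicate block, 896 with replicate 1 as a batch factor and 0 to 284 with arrays left out. The 0 members called became 23 with the replicate block, 22 with the batch factor and 0 to 9 with arrays left out; the 0 other chromosome 22 genes became 29, 26 and 0 to 9. With the block itself, the 1021 genes became 510 with no filter, 38 with no trend, 608 with the mean of probe sets, 644 without probe sets of shared sequence and 541 to 933 without a replicate number. The 23 members became 15, 0, 17 and 9 (of 27 tested) in those settings, and 16 to 20 without a replicate number; the 29 others became 16, 0, 19 and 20, and 12 to 23. The median of 22q11 was 0.30 with the mean of probe sets and 0.31 to 0.53 with arrays left out; that of 22q12 and 22q13 was 0.00 without shared sequence and 0.06 to 0.18 with arrays left out. In the replicate 1 contrast, 3260 genes became 1692 with no trend, 2000 without shared sequence and 810 to 3261 with arrays left out; the 25 members became 15, 11 and 12 to 23. The cause of these moves was not tested, save that fewer probe sets or arrays entered where some were left out. Of 760 values of single members under an alternative, 653 lay within 1 SD of the replicates. That count includes the other filters and the replicate block, which cannot move a member's difference, so it overstates how stable the values were.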
